A study of Mus musculus with 10 samples.

Results

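The proteasome subunit genes of the kidney were compared between mice heterozygous for an activating change in Rragc and their wild-type controls. Members were chosen by name, as every gene of the normalized count table whose symbol began with Psma, Psmb, Psmc or Psmd and a number, with the 3 immunoproteasome genes Psmb8, Psmb9 and Psmb10 set aside. This gave 34 genes of the 13299 in the table, and all 34 were among the 13236 genes that passed a filter on low values (a normalized count of at least 5 in at least 5 samples). Psma8, Psmb11 and Psmc3ip were not analysed here. Rragc encodes RagC, a small GTPase at the lysosome through which amino acids switch on the growth kinase complex mTORC1, and S74N is an active form. The 5 Rragc S74N/+ mice carried the change in the germline, made by CRISPR, in every tissue and on 1 allele, since homozygotes are not viable. The 5 Rragc +/+ mice carried no such change. All 10 were 1.5 years old, of the C57BL/6 strain, and 300 ng of total RNA from whole kidney was sequenced from the 3′ ends of mRNA, at 4488493 to 5797251 reads per library in the table. The labels do not say whether the mice of a group were littermates, and nothing else about them differed by label. Kidney markers were present in every library, such as Slc12a3 at 827 to 4321 normalized counts, and whole tissue was measured, so fewer cells of a type and less RNA per cell cannot be told apart.

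The proteasome is the large protease that degrades proteins tagged with chains of ubiquitin. Its 20S core is a barrel of stacked α rings (Psma genes) and β rings (Psmb genes), and the peptide bonds are cut inside it by the β subunits Psmb5, Psmb6 and Psmb7. The 19S regulatory particle caps the barrel. Its base holds a ring of ATPases (Psmc genes) that unfold the substrate and the scaffold and receptor subunits Psmd1, Psmd2 and Psmd4, and its lid (Psmd3, Psmd6, Psmd7, Psmd8, Psmd11, Psmd12, Psmd13 and Psmd14) removes ubiquitin through Psmd14. Psmd5, Psmd9 and Psmd10 are chaperones that help to build the base and leave the finished particle. In inflamed tissue and in immune cells Psmb8, Psmb9 and Psmb10 replace Psmb5, Psmb6 and Psmb7 to give the immunoproteasome, which makes peptides for antigen presentation. mTORC1 signaling has been tied to proteasome levels through the transcription factor NRF1, the product of Nfe2l1, which raises proteasome genes together by binding an element with the core TGACNNNGC.

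The start of the promoter is shown for the subunit gene that passed the test below, Psma1, and for the genes with that core near the transcript start, since NRF1 is known to act on proteasome genes through this element. The sequences come from RefSeq promoters of build GRCm38.p6, which differs from the build of the counts, and each is the stretch of 120 bases that ends just before the transcript start, on the strand of the gene. Capitals mark the core TGACNNNGC, searched on both strands.
Psma1, chr7:114276117-114276236, minus strand: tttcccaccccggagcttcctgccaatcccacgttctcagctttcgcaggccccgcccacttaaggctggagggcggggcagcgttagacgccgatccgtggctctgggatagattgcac
Psmb5, chr14:54617996-54618115, minus strand: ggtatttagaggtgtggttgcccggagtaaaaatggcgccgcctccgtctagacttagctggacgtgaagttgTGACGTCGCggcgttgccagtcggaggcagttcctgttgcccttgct
Psmb6, chr11:70525237-70525356, plus strand: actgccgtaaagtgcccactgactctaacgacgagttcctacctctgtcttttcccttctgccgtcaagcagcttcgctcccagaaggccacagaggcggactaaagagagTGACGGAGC
Psmd9, chr5:123228070-123228189, plus strand: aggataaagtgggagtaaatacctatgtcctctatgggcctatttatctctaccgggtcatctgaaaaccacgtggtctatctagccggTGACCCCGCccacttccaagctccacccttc

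A promoter of 300 bases (250 before the start and 50 after it) was matched for 28 of the 34 genes. The core was found in 5 of these 28 (17.9%), and in 16.8% of the 9901 genes of the whole table that had a promoter, so the members did not stand out by it. Psmb5 and Psmb6 code for catalytic subunits, and Psmd9 for a base chaperone. In Psmd12 and Psmc6, the other two genes with a match, the core lay farther from the start and on the opposite strand. A match is a string of letters and not a tested site, and a promoter without one says nothing about the factor.

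The subunit genes differed widely in level, although the subunits of the finished particle are present in equal copies. Reads came from the 3′ end only, so counts were not divided by transcript length, and differences in priming or in the annotated 3′ end between genes were not tested. Psmc1, an ATPase of the base, had the highest mean over the 10 kidneys at 1473 normalized counts, followed by the ubiquitin receptor Psmd4 (1386), the α subunit Psma7 (1110) and the ATPase Psmc3 (1077). These 4 genes held 33.9% of the summed counts of the 34. The median gene had a mean of 360.3 normalized counts. The lowest were Psma5 (20.3 normalized counts) and Psmb2 (28.4 normalized counts), which code for core subunits as well, and Psmc1 was 72.4 times as high as Psma5. The last 400 bases of the transcripts of 6 members matched a transcript of another gene over at least 75 bases at 97% identity or more, in Psma5, Psmb3, Psmb5, Psmc1, Psmd1 and Psmd2. Reads of these 6 may not be separable from those of the matched transcript. None of the matched genes was in the table of counts. The match of Psmd1, Gm21972, is a gene whose exons overlap those of Psmd1 on the same strand. Psma5 and Psmc1, the lowest and the highest member, are both among the 6, and the effect on their counts was not tested.

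Between genotypes the proteasome did not move as a unit. Only Psma1, an α subunit of the core, passed the test (limma on log2(normalized count + 1), Benjamini-Hochberg adjusted p under 0.05 over all genes tested), and no member fell. This was 1 of 34 genes, against 6.03% of all genes tested, of which 3.45% were higher and 2.58% lower in Rragc S74N/+ kidneys. At an unadjusted p under 0.05 there were 7 members, 3 higher and 4 lower, or 20.6% of them, against 25.4% of all genes. The median log2 fold change of the 34 genes was −0.02, against −0.01 over all genes, with 15 members above 0 and 19 below. For 15 members the log2 fold change was smaller than 0.2 in size, and for 4 it was larger than 0.5. The plot of log2 fold changes by part of the complex shows members on both sides of 0 in every part except the base scaffold and receptor genes.

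**Figure D1:**
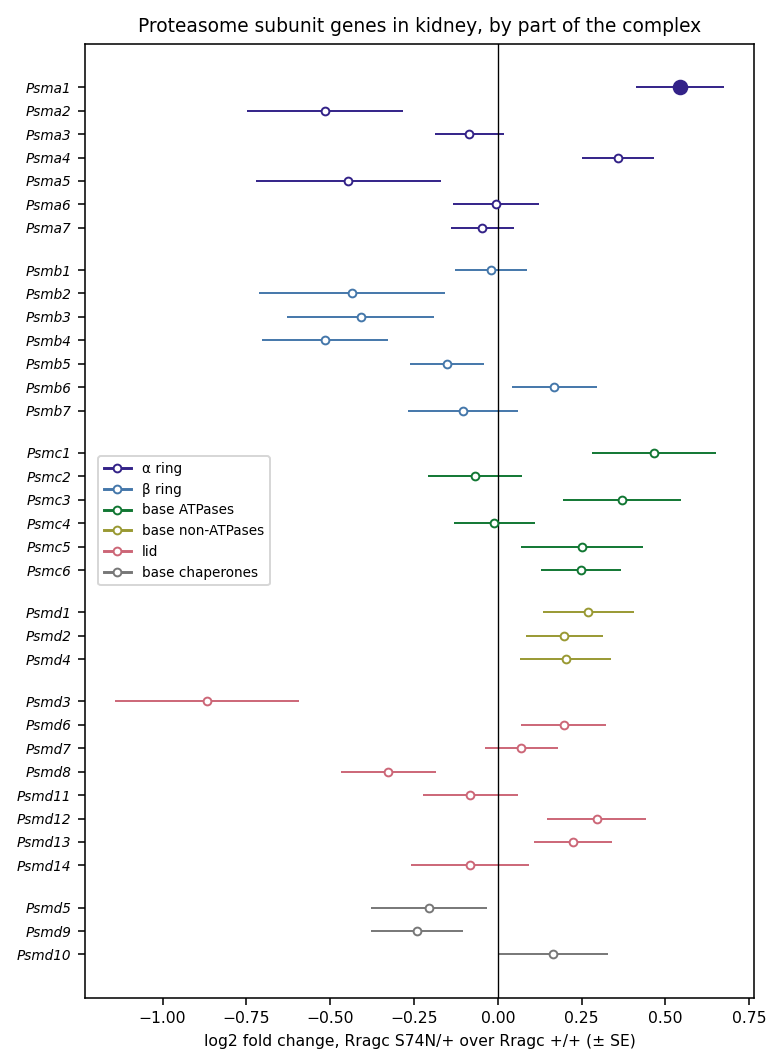
Log2 fold change of normalized count, Rragc S74N/+ over Rragc +/+ kidneys (x axis, mean difference ± SE, n = 5 per genotype), for each of the 34 proteasome subunit genes (y axis), coloured by part of the complex. The filled point, Psma1 at 0.54, is the only gene with an adjusted p under 0.05, and Psmd3 at −0.87 lies farthest from 0.

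In the α ring, Psma1 had 168.9, 158.1, 168.9, 172.0 and 206.9 normalized counts in Rragc +/+ replicates 1 to 5, and 255.5, 216.1, 236.9, 315.7 and 258.4 in Rragc S74N/+ replicates 1 to 5. Every Rragc S74N/+ kidney lay above every Rragc +/+ kidney. The mean rose from 175.0 ± 18.6 (SD, n = 5) to 256.6 ± 37.2 (SD, n = 5), which is 0.54 ± 0.13 on the log2 scale (SE, adjusted p = 0.024 in limma). The gene gave nearly the same difference among kidneys with a title number under 200 (0.51) and over 200 (0.60). The call was lost in 5 of the 10 fits that left out 1 kidney, without Rragc +/+ replicate 1, 2 or 4 or Rragc S74N/+ replicate 4 or 5, at adjusted p of up to 0.071, with a log2 fold change of 0.47 to 0.61 in all 10.

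Psma4, another α subunit, had 381.5, 372.4, 407.0, 358.0 and 405.9 normalized counts in the Rragc +/+ kidneys. In the Rragc S74N/+ kidneys it had 461.6, 475.9, 447.9, 512.3 and 578.1, again without overlap. Its log2 fold change was 0.36 ± 0.11 (SE, limma adjusted p = 0.059), just above the threshold. It passed in count models on the recovered reads, at adjusted p = 0.049 in edgeR (6.3% of all genes called) and 0.020 in DESeq2 (10.4% of all genes called). In the 8 libraries whose read step was clearly apart from 1, the adjusted p was 0.056 in edgeR and 0.032 in DESeq2. These 8 leave out Rragc +/+ replicate 5 and Rragc S74N/+ replicate 3. The other α subunits lay below 0 without passing: Psma2 (−0.52), Psma5 (−0.45), Psma3 (−0.08), Psma7 (−0.05) and Psma6 (−0.01 on the log2 scale). Without replicate 1 of Rragc S74N/+, Psma2 was at −0.29 and Psma6 at 0.10.

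The largest difference of the 34 was that of Psmd3, a scaffold subunit of the lid. Psmd3 had 642.2, 746.9, 600.0, 530.1 and 571.1 normalized counts in the Rragc +/+ kidneys, and 125.9, 383.8, 445.9, 426.7 and 465.4 in the Rragc S74N/+ kidneys. The groups did not overlap, and replicate 1 of Rragc S74N/+ was far below the rest of its group. The log2 fold change of −0.87 ± 0.27 (SE) had an adjusted p of 0.070 in limma. Without that replicate it was smaller, −0.51, but the spread was smaller too and the adjusted p was 0.010, in a fit that called 6.8% of all genes. DESeq2 on all 10 kidneys also called it (−0.74, adjusted p = 0.040), and edgeR did not (−0.74, adjusted p = 0.078). The log2 fold change of Psmd3 was −1.24 among title numbers under 200 and −0.30 among those over 200. Psma1, Psma4 and Psmd3 were the 3 members whose groups did not overlap (8.82% of the members), against 8.16% of all genes tested.

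**Figure D2:**
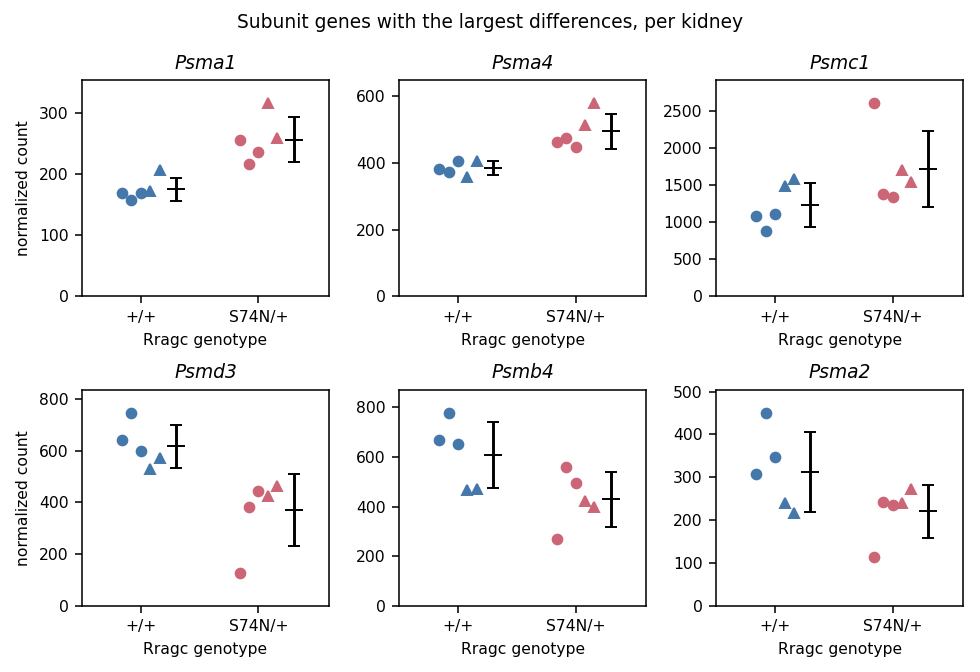
Normalized counts (y axis, from 0) of 6 proteasome subunit genes in each kidney by Rragc genotype (x axis), with circles for title numbers under 200, triangles for title numbers over 200, and bars for the mean ± SD of 5 kidneys. The groups do not overlap for Psma1, Psma4 and Psmd3, and replicate 1 of Rragc S74N/+ is the lowest for Psmd3 (125.9), Psmb4 (268.6) and Psma2 (112.8) and the highest for Psmc1 (2602).

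In the β ring, 6 of 7 constitutive genes had a lower mean log2 value in Rragc S74N/+ kidneys and none passed. Psmb4, the last subunit to join the β ring during assembly, had 667.9, 778.2, 653.7, 469.0 and 471.6 normalized counts in Rragc +/+ and 268.6, 558.3, 494.9, 423.7 and 398.3 in Rragc S74N/+ kidneys. These ranges overlapped, and its log2 fold change was −0.52 ± 0.19 (SE, limma adjusted p = 0.105). It was −0.73 among title numbers under 200 and −0.19 among those over 200. Psmb2 (−0.43, adjusted p = 0.344) and Psmb3 (−0.41, adjusted p = 0.255) lay on the same side, and Psmb1 was at −0.02 (adjusted p = 0.931). Psmb3 was at −0.19 without replicate 1 of Rragc S74N/+ and at 0.01 among title numbers over 200. The 3 catalytic genes had log2 fold changes smaller than 0.2 in size. Psmb5, with the chymotrypsin-like activity, had means of 779.8 ± 59.0 and 703.8 ± 83.6 normalized counts (SD, n = 5 each) in Rragc +/+ and Rragc S74N/+ kidneys, a log2 fold change of −0.15 ± 0.11 (SE, adjusted p = 0.407). Psmb6, with the caspase-like activity, had 605.8 ± 88.6 and 679.0 ± 83.8 (0.17 ± 0.13, adjusted p = 0.426). Psmb7, with the trypsin-like activity, had 272.1 ± 42.0 and 256.8 ± 60.5 (−0.10 ± 0.16, adjusted p = 0.733). Without replicate 1 of Rragc S74N/+ they were at −0.08, 0.11 and 0.03.

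In the base, 4 of 6 ATPase genes and all 3 scaffold and receptor genes had a higher mean log2 value in Rragc S74N/+ kidneys, and again none passed. Psmc1 had 1091, 883.2, 1114, 1491 and 1580 normalized counts in Rragc +/+ and 2602, 1384, 1341, 1702 and 1547 in Rragc S74N/+ kidneys. The ranges overlapped, and replicate 1 stood above the other Rragc S74N/+ kidneys. The log2 fold change was 0.47 ± 0.19 (SE, adjusted p = 0.133), and 0.30 without that replicate. It was 0.72 among title numbers under 200 and 0.08 among those over 200. Psmc3 followed at 0.37 ± 0.18 (SE, adjusted p = 0.201), Psmc5 and Psmc6 were both at 0.25 (adjusted p = 0.411 and 0.205), and Psmc2 and Psmc4 were at −0.07 and −0.01 (adjusted p = 0.808 and 0.969). Without replicate 1 Psmc3 was at 0.24, Psmc5 at 0.11 and Psmc2 at 0.02, and Psmc5 was at −0.01 among title numbers over 200. Psmc3 was at 0.51 under and 0.16 over title number 200, and Psmc6 at 0.18 and 0.36. Psmd1 and Psmd2, the scaffolds that hold ubiquitin receptors and shuttles, were at 0.27 and 0.20, and Psmd4 was at 0.20, or 0.13 without replicate 1, with adjusted p of 0.226 to 0.366 in the whole set. Under and over title number 200, Psmd4 was at 0.37 and −0.05, Psmd1 at 0.07 and 0.57 and Psmd2 at 0.04 and 0.44. In the lid, Psmd12 (0.29, adjusted p = 0.221) and Psmd13 (0.22, adjusted p = 0.239) lay above 0 and Psmd8 (−0.33, adjusted p = 0.162) below it, and the deubiquitinase Psmd14 was at −0.08 (adjusted p = 0.814). Of the remaining lid genes, Psmd6 was at 0.20, Psmd7, the partner of Psmd14, at 0.07 and Psmd11 at −0.08, with adjusted p of 0.354 to 0.758. The chaperones Psmd5 (−0.20, or −0.12 without replicate 1), Psmd9 (−0.24) and Psmd10 (0.17) did not pass.

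Summed over the 34 genes, the normalized counts were 14165, 14399, 14520, 14475 and 14978 in Rragc +/+ replicates 1 to 5 and 15647, 14577, 14518, 15292 and 16103 in Rragc S74N/+ replicates 1 to 5. Of the Rragc S74N/+ kidneys 3 were above all Rragc +/+ kidneys and the ranges overlapped. The means were 14508 ± 297 and 15227 ± 684 (SD, n = 5 each), 4.96% higher in Rragc S74N/+. As a share of all normalized counts the genes took 0.294% ± 0.0140 in Rragc +/+ and 0.325% ± 0.0138 in Rragc S74N/+ kidneys (SD, n = 5 each), a difference of 10.8%. For this share 3 of the Rragc S74N/+ kidneys were above all Rragc +/+ kidneys, and the ranges overlapped. With mitochondrial genes left out of the total, the share was 7.94% higher. The total of all normalized counts was 4576639 to 5087152 in Rragc +/+ and 4473981 to 4847611 in Rragc S74N/+ libraries. The sums are described here and were not tested.

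The 14 genes of the 20S core and the 17 genes of the 19S particle had group means that lay in opposite directions, with overlapping ranges. The core sum was 6051 ± 389.7 in Rragc +/+ and 5760 ± 491.4 in Rragc S74N/+ kidneys (SD, n = 5 each), −4.81%. This was −1.39% without replicate 1 of Rragc S74N/+, and among title numbers over 200 the core turned to 5.11% higher, the direction of the 19S sum there (7.72%). The 19S sum was 8113 ± 626 and 9145 ± 959 (SD, n = 5 each), 12.7% higher in Rragc S74N/+ kidneys, and 3 of these 5 lay above all controls, and 8.69% higher without replicate 1. Most of the latter came from the ATPases, whose sum was 26.0% higher, and 14.9% higher without replicate 1. The ATPase sum was 42.4% higher among title numbers under 200 and 7.27% higher among those over 200. The ratio of the core sum to the 19S sum was 0.796, 0.873, 0.796, 0.667 and 0.628 in Rragc +/+ and 0.472, 0.745, 0.713, 0.619 and 0.642 in Rragc S74N/+ kidneys. The mean ratio was 0.752 in Rragc +/+ and 0.638 in Rragc S74N/+ kidneys. Within each genotype the ratio varied farther than these means lay apart, from 0.628 to 0.873 and from 0.472 to 0.745. It was lowest in replicate 1 of Rragc S74N/+, and in Rragc +/+ it was lower in the 2 kidneys with a title number over 200 than in the rest. Between genotypes the mean ratio differed by −21.7% among title numbers under 200 and by −2.55% among those over 200.

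**Figure D3:**
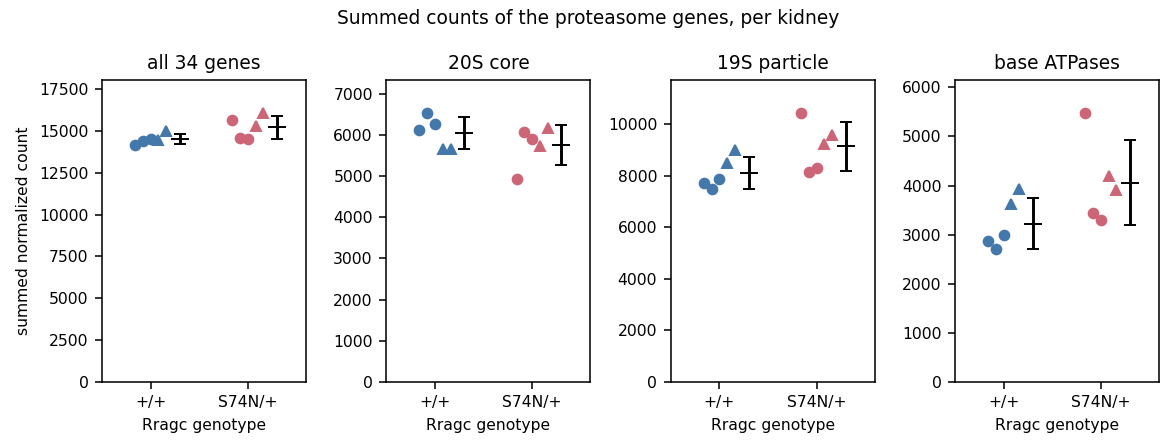
Summed normalized counts (y axis, from 0) of all 34 genes, the 14 genes of the 20S core, the 17 genes of the 19S particle and the 6 base ATPase genes in each kidney by Rragc genotype (x axis), with circles and triangles for title numbers under and over 200 and bars for the mean ± SD of 5 kidneys. The genotypes overlap in all 4 panels, and replicate 1 of Rragc S74N/+ has the lowest core sum (4934) and the highest ATPase sum (5486).

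The members varied together within genotypes in opposing blocks. After subtraction of the group mean from each log2 value, the median Pearson r over the 561 pairs of members was 0.14 over 10 kidneys, against −0.0025 over pairs of all genes tested. The share of pairs with r beyond 0.7 in either direction was 17.5% among members and 6.28% among all genes. The all-gene pairs were not limited to genes with a mean of at least 50, which 32 of the members had. These values of r thus compare genes of unlike level. Psma2 (r = 0.87), Psma6 (0.87), Psmb3 (0.86), Psmb7 (0.83), Psmb5 (0.81) and Psmd8 (0.80) went with Psmd3, and Psmc1 (−0.80), Psmc5 (−0.80), Psmc3 (−0.66), Psmb6 (−0.65) and Psmd4 (−0.60) went against it. Psmd1 (0.77), Psmb4 (0.75), Psmc6 (0.72), Psma3 (0.66), Psma7 (0.64) and Psmc2 (0.64) also went with Psmd3, so genes of the base lay on both sides. Psma1 was on neither side (−0.05). Between kidneys of 1 genotype the members had a median SD of 0.22 log2 units, from 0.08 for Psma7 to 0.58 for Psmd3, against 0.25 over the 7742 genes with a mean of at least 50. The correlations are descriptions over kidneys of the same libraries and rest in part on 1 of them. The group mean was that of the genotype, so differences between the title number ranges described below stayed in these values. In Rragc +/+ kidneys, Psmd3, Psma2, Psma6, Psma7, Psmb3, Psmb4, Psmb7 and Psmb5 were higher under title number 200, without overlap. Psmc1, Psmc3, Psmb6 and Psmd4 were higher over 200, also without overlap. The ranges of Psmd8, Psmc5, Psmd1, Psmc6, Psma3 and Psmc2 overlapped. The part of the title number in the blocks was not tested. Without replicate 1 of Rragc S74N/+ the median r of members was 0.05 and the share beyond 0.7 was 11.6%, and r with Psmd3 stayed at 0.80 for Psma2 and −0.70 for Psmc1, but dropped to 0.10 for Psma6. Also without that replicate, r with Psmd3 was 0.27 for Psmd1, 0.18 for Psmc6, 0.30 for Psmc2 and −0.40 for Psmc3.

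Replicate 1 of Rragc S74N/+ stood apart from the other kidneys for the proteasome as for the transcriptome. In it 8 members lay more than 0.5 log2 units from the group mean, 5 below and 3 above, whereas no other kidney had more than 2 such members. Over all genes tested, 30.8% lay that far from the group mean in it, against 12.8% to 16.4% in the other 9 kidneys. The 3 members above were Psmc1, Psmc3 and Psmc5, all ATPases, and the 5 below were Psma2, Psmb3, Psmb4, Psmb7 and Psmd3. Its RNA quality was not given separately, and the part of RNA quality in its values was not tested. The map of values by kidney shows this column as the darkest.

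**Figure D4:**
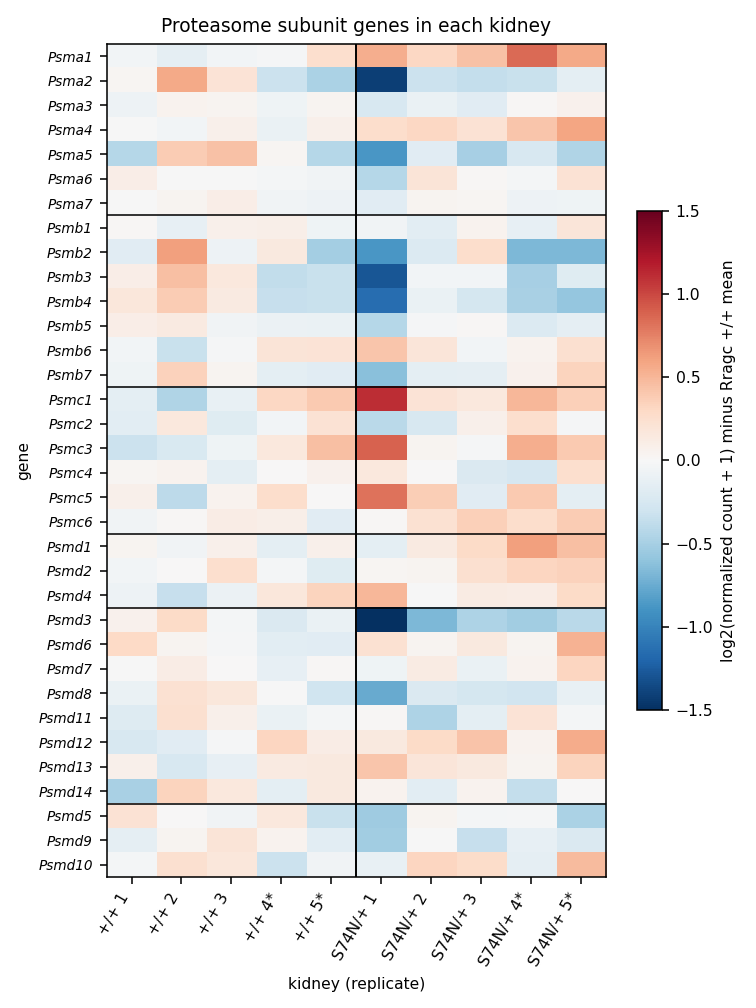
Difference of log2(normalized count + 1) from the Rragc +/+ mean (colour, from −1.5 to 1.5) for the 34 proteasome subunit genes (rows, grouped by part of the complex with lines between parts) in each of the 10 kidneys (columns, with an asterisk for title numbers over 200). Psma1 and Psma4 are above 0 in all 5 Rragc S74N/+ kidneys and Psmd3 below 0 in all 5, and Rragc S74N/+ replicate 1 holds the extremes.

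A second split among the kidneys followed the number in the sample title, whose meaning the labels do not give. Both genotypes had 3 kidneys with a number under 200 and 2 over it. Among Rragc +/+ kidneys alone, the ranges of the numbers under and over 200 did not overlap for 17 of the 34 members, against 27.9% of all genes tested. Of these, 10 were higher under 200, among them Psma2 (309 to 450 against 217 to 241), Psmb3 (518 to 659 against 373 to 383) and Psmb4 (654 to 778 against 469 to 472 normalized counts). The other 7 were higher over 200, among them Psmc1 (883 to 1114 against 1491 to 1580) and Psmd4 (1005 to 1214 against 1432 to 1615 normalized counts). The genotype difference had the same sign in both ranges for 21 members (11 above 0 and 10 below) and opposite signs for 13, or 38.2%, against 35.7% of all genes. Psma2 is an example of the latter, at −0.97 under and 0.16 over 200 on the log2 scale, and Psmb7 another, at −0.41 and 0.35.

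The immunoproteasome genes, which the name rule left out, had higher means in Rragc S74N/+ kidneys and did not pass the main test across all genes. Psmb8 had 28.0, 23.9, 37.4, 25.3 and 19.9 normalized counts in Rragc +/+ and 50.4, 57.2, 58.0, 43.8 and 29.1 in Rragc S74N/+ kidneys (log2 fold change 0.79 ± 0.24, SE, limma adjusted p = 0.061). With a block for the title number range its adjusted p was 0.040 in limma, and in DESeq2 it was 0.029, or 0.161 in the 8 libraries with a clear read step. Those 8 leave out Rragc S74N/+ replicate 3, where Psmb8 was highest (58.0). Psmb10 had 30.2, 39.5, 45.1, 40.2 and 37.8 against 84.9, 73.7, 45.99, 49.9 and 65.1, with no overlap (0.69 ± 0.20, adjusted p = 0.057, or 0.063 with the block). It passed in edgeR (adjusted p = 0.049) and DESeq2 (adjusted p = 0.025), but in the 8 libraries only in DESeq2 (0.028, against 0.052 in edgeR). Psmb9 was the lowest of these genes, at 7.9 to 14.5 against 10.7 to 29.0 normalized counts (0.64 ± 0.36, adjusted p = 0.272). Of the Rragc S74N/+ kidneys, 4 of 5 and 5 of 5 lay above every control for Psmb8 and Psmb10.

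Each immune subunit takes the place of a constitutive one, so the balance within the pair was also tested, by exact permutation of the genotype labels over all ways to divide the 10 kidneys (two-sided, smallest p it can give 0.00794), adjusted over the 3 pairs. Psmb8 made up 3.34% ± 0.836 of the counts of Psmb8 and Psmb5 in Rragc +/+ and 6.37% ± 1.51 in Rragc S74N/+ kidneys (SD, n = 5 each), and the log2 ratio was 0.95 higher (exact p = 0.0159, adjusted p = 0.0238). Psmb10 made up 12.5% ± 1.92 and 20.6% ± 7.55 of the counts of Psmb10 and Psmb7 (SD, n = 5 each), and the log2 ratio was 0.79 higher (exact p = 0.00794, adjusted p = 0.0238). Psmb9 made up 1.85% ± 0.661 and 2.76% ± 1.44 of its pair with Psmb6, and the log2 ratio differed by 0.47, which did not pass (exact p = 0.286). The share of Psmb10 was highest in replicate 1 of Rragc S74N/+ (32.7%), where Psmb7 was also lowest, and the difference was 0.55 without it (adjusted p = 0.0238). The groups did not overlap for this ratio, so leaving out a kidney could not undo their separation. By title number, the Psmb10 difference was 1.20 under and 0.18 over 200, that of Psmb8 1.09 and 0.72, and that of Psmb9 −0.04 and 1.25.

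**Figure D5:**
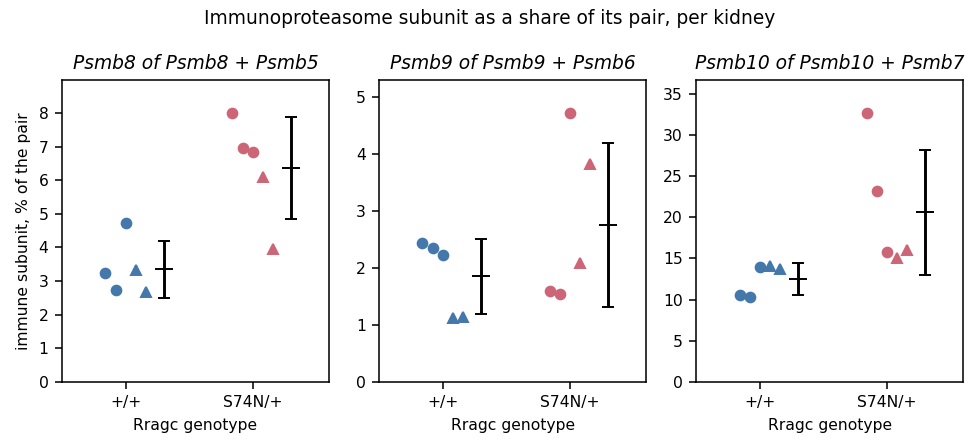
Normalized count of each immune catalytic subunit gene as a percent of the summed counts of it and its constitutive partner (y axis, from 0) in each kidney by Rragc genotype (x axis), with circles and triangles for title numbers under and over 200 and bars for the mean ± SD of 5 kidneys. For Psmb10 the genotypes do not overlap (10.4% to 14.1% against 15.1% to 32.7%), and for Psmb9 they do.

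Immune cell markers were also higher in the Rragc S74N/+ kidneys. Of 22 markers of macrophages and other myeloid cells, T cells, B and plasma cells and neutrophils, 15 were tested. Of these, 4 rose (Lyz2, C1qb, Trac and S100a9), against 3.45% of all genes tested. In all, 14 of 15 lay above 0, against 48.7% of all genes. Only Cd68, a macrophage marker, lay below 0 (−0.34, limma adjusted p = 0.598). The summed level of the immune markers was 684.5 to 971.5 normalized counts in Rragc +/+ and 1108 to 1525 in Rragc S74N/+ kidneys, without overlap. The macrophage markers Csf1r and C1qa were present in all 10 kidneys, and Cd3e, of T cells, was at 0 in 1 library. Csf1r, C1qa and Adgre1, another macrophage marker, did not pass, at 0.44, 0.51 and 0.18 on the log2 scale. Their adjusted p in limma was 0.073, 0.144 and 0.791. The part of immune cells in the immune subunit counts was not tested. Summed markers of the distal convoluted tubule also did not overlap. They were at 3730 to 4540 in Rragc +/+ and 858 to 1463 normalized counts in Rragc S74N/+ kidneys. Of other segments, 2 of 4 thick ascending limb markers (Umod and Egf) fell. So did 2 of 8 proximal tubule markers (Slc5a2 and Gatm) and 1 of 6 collecting duct markers (Slc4a1), against 2.58% of all genes tested. Of 5 fibroblast markers 2 rose (Col1a1 and Col1a2). The rest of these lists did not pass. The part of these cell types in the subunit counts was not tested either.

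Of the 40 other genes of the ubiquitin and proteasome pathway that were tested, 1 rose and none fell, against 3.45% and 2.58% of all genes. Vcp, which codes for the unfoldase p97 that hands substrates to the proteasome, had 1498, 1493, 1699, 1663 and 1752 normalized counts in Rragc +/+ and 2176, 2134, 2032, 2139 and 2212 in Rragc S74N/+ kidneys. The groups did not overlap, and the means were 1621 ± 119 and 2138 ± 67.6 (SD, n = 5 each), which is 0.40 ± 0.09 on the log2 scale (SE, adjusted p = 0.022 in limma). It held at 0.44 under and 0.35 over title number 200 and was called in 7 of the 10 fits that left out 1 kidney, but not without Rragc +/+ replicate 1 or 2 or Rragc S74N/+ replicate 5. Its cofactors Ufd1 (0.13, or −0.02 without replicate 1 of Rragc S74N/+) and Nploc4 (−0.07) did not pass. Nfe2l1, the gene of NRF1, had means of 373.8 ± 45.0 and 402.4 ± 139.9 normalized counts (SD, n = 5 each; log2 fold change 0.06 ± 0.18, adjusted p = 0.872). It turned to −0.13 without replicate 1 of Rragc S74N/+ and was −0.25 among title numbers over 200.

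All 5 chaperone genes of core assembly, Psmg1, Psmg2, Psmg3, Psmg4 and Pomp, had lower means in Rragc S74N/+ kidneys, and none passed. Their log2 fold changes ran from −0.76 for Psmg3 to −0.26 for Pomp, with a median of −0.50, and 4 of the 5 had an unadjusted p under 0.05, against 25.4% of all genes. Without replicate 1 of Rragc S74N/+, Psmg3 was at −0.38 and Pomp at −0.12, and Psmg3 was at 0.07 among title numbers over 200. Psmg4 was the one without overlap between the groups, at 104.0, 90.5, 77.8, 83.0 and 79.6 normalized counts in Rragc +/+ and 59.7, 65.9, 70.0, 65.2 and 66.1 in Rragc S74N/+ kidneys (−0.40 ± 0.15, SE, adjusted p = 0.109). Of the activators and the inhibitor, Psme1 and Psme2, which form the 11S cap that works with the immunoproteasome, were at 0.19 ± 0.12 (SE, adjusted p = 0.328) and 0.09 ± 0.30 (SE, adjusted p = 0.883). Ecpas, a scaffold protein of the proteasome, was higher without overlap (154.4 to 170.1 against 178.3 to 258.7 normalized counts) at an adjusted p of 0.085.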

How the data were processed

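Whole kidneys of 5 Rragc S74N/+ and 5 Rragc +/+ mice were profiled by QuantSeq, an oligo-dT primed and strand-specific 3′ mRNA method. Per the labels and the methods of the study, the authors checked reads with FastQC 0.11.7, aligned them to GRCm39 with TopHat2 2.0.10, Bowtie 1.0.0 and SAMtools 0.1.19, and counted them per gene with HTSeq 0.6.1 on a GENCODE annotation. The deposited values are signal in the form of normalized counts, made by the authors by dividing counts by a size factor per sample. Columns of the authors' own comparison were not used.

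Log2(normalized count + 1) was fitted here on genotype alone, using limma 3.58.1 (R 4.3.3) and its variance trend, for the 13236 genes with at least 5 normalized counts in at least 5 samples, with Benjamini-Hochberg adjustment over all of them and a threshold of 0.05. The pseudocount understates changes of low genes. In all 10 columns 100% of values came out as whole reads when divided by the smallest step (tolerance 0.001), and edgeR 4.0.16 (quasi-likelihood) and DESeq2 1.42.0 were run on these reads as alternatives. In 2 columns (Rragc +/+ replicate 5 and Rragc S74N/+ replicate 3) the step, 0.9949 and 0.9998, is so near 1 that recovery there is less sure, so both tools were also run on the other 8 columns, a choice made after seeing the data. Each genotype lost 1 kidney in that run, and the part of this loss in its results was not tested. Immune to constitutive ratios were compared by an exact permutation test. Nothing in the labels says more on how the 5 samples of a group were drawn than that each is a mouse of its own title, so p-values measure the spread between these samples. The named genes were the members past the threshold, the 5 largest rises and falls among members, Psmb5, Psmb6, Psmb7, the most and least abundant members, Psmb8, Psmb9, Psmb10, Psme1, Psme2, Nfe2l1 and pathway genes past the threshold; others were named after their values were seen. The members and lists were chosen with earlier results of these data known. Scripts were tested on simulated data. Alternatives were other pseudocounts (0.5 and 5), filters and scalings, variance settings, a block for the title number, each kidney left out, and the title ranges apart (the last chosen after seeing the data). Promoters came from RefSeq on GRCm38.p6, and copies were searched in GENCODE transcripts of GRCm38 with BLAST. Results on some genes of the pathway lists are not reported here.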

Additional observations from a re-analysis of the deposited data

Results flagged for a closer look

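A kidney was taken as far from its group where the gap to its nearest neighbour was more than 0.71 of the range of the 5 (Dixon's 95% value), searched over 56 measures in both genotypes. This gave 6 of 112 searches, and chance gives about 1 in 20, or 5.6. Rragc S74N/+ replicate 1 held 4 of the 6. It was lowest for Psmd3 at 125.9 normalized counts (others 383.8 to 465.4) and for Psma2 at 112.8 (others 234.9 to 273.0). It was highest for Psmc1 at 2602 (others 1341 to 1702) and for Nfe2l1 at 648.1 normalized counts (others 304.1 to 375.8). Nfe2l1 was also far below its group in Rragc +/+ replicate 1, at 295.3 normalized counts (others 380.1 to 404.9). Psma1 was highest in Rragc +/+ replicate 5 at 206.9 normalized counts (others 158.1 to 172.0), still below every Rragc S74N/+ kidney. Why these kidneys stood apart was not tested.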

How the results depend on the processing

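The count of changed genes over the whole table was 798 and moved to 391 without the variance trend, 1354 in DESeq2, 187 at an adjusted p under 0.01 and 46 among title numbers under 200 alone. With a minimum mean of 50 it was 675. It was 943 with equal totals, 882 with equal totals without mitochondrial genes and 844 with equal 75th percentiles. In edgeR it was 834, with the title number block 860, and among title numbers over 200 alone 617. This count ran from 311 (without Rragc +/+ replicate 2) to 902 when 1 kidney was left out, and was 900 without Rragc S74N/+ replicate 1. The count of changed members was 1 and became 2 (Psma1 and Psma4) with a minimum mean of 50, with equal totals, with equal totals without mitochondrial genes, with equal 75th percentiles and in edgeR, and 3 in DESeq2 (with Psmd3). It was 0 without the variance trend, at an adjusted p under 0.01 and among title numbers under 200, and 2 (Psma4 and Psmd1) among those over 200. It ran from 0 to 3 with 1 kidney left out, the 3 without Rragc S74N/+ replicate 1. The pathway count was 1 and became 4 with equal totals and in DESeq2 (Ecpas, Psmb8, Psmb10 and Vcp), 2 with equal totals without mitochondrial genes, in edgeR (Psmb10 and Vcp in both) and with the title number block (Psmb8 and Vcp), and 0 without the trend and at an adjusted p under 0.01. It ran from 0 to 2 with 1 kidney left out.

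The median log2 fold change of members lay between −0.07 and 0.02 with 1 kidney left out and was 0.06 with equal totals. The member sum was 3.45% to 6.18% higher with 1 kidney left out and 10.8% higher with equal totals. The Psmb8 ratio difference ran from 0.85 to 1.11 and that of Psmb10 from 0.55 to 0.91 with 1 kidney left out. Each had an adjusted exact p under 0.05 in all 10. For Psmb10 this outcome was fixed in advance, since its groups did not overlap and stay apart whichever kidney is left out. The Psmb9 ratio difference ran from 0.24 to 0.64, and was −0.044 among title numbers under 200 and 1.25 over 200. Over 200 that of Psmb10 was 0.18. Median r among members ran from 0.05 to 0.19. The causes were not tested. Over the 20 named genes and 435 refits, 399 kept direction and call, 10 lost a call (Psma1 and Vcp), 19 gained one and 7 uncalled differences near 0 changed sign. Psma1 lost its call in 6 of 22 refits and Vcp in 4 of 22. The other named genes had no call in the main fit to lose. All 10 columns were taken as recovered, so a fit on only the recovered columns was the fit on all 10. In the 8 columns with a step clearly apart from 1, DESeq2 called 1402 genes, 6 members (with Psmb4, Psmc1 and Psmc3) and 3 pathway genes (Ecpas, Psmb10 and Vcp), and edgeR called 851 genes, Psma1 and Vcp. No paired analysis was possible because the kidneys carry no number that ties one genotype to the other. Psma5 and Psmb2, at means of 20.3 and 28.4 normalized counts, had an SE of 0.28 each. Psmd3, at a mean of 493.8 normalized counts, had an SE of 0.27. The part of the depth of 4488493 to 5797251 reads in these errors was not tested.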
